A study of Mus musculus with 2 samples.

Results

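Of 21418 protein-coding genes on chromosomes 1 to 19 of the mouse assembly mm9, 1223 had an ATAC-seq peak at a start site in control enteroids and none in Taf4-inactivated enteroids. These genes, called control-only below, were chosen by the presence and absence of peaks: a control peak lay within 1 kb of at least 1 annotated start site, and no Taf4-inactivated peak lay within 1 kb of any. They made up 5.71% of the coding genes (exact 95% confidence interval 5.40 to 6.03), and the peaks with the highest fold at their start sites were 1204 distinct regions. A further 622 genes (2.9%) had the reverse pattern, 13604 (63.5%) had a peak in both lists and 5969 had one in neither. Of the 14827 genes with a control start site peak, 8.25% lacked a Taf4-inactivated one, and of the 14226 genes with a Taf4-inactivated start site peak, 4.37% lacked a control one. Because peak calls selected the genes, their peak values are descriptions, with no test.

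Chromatin accessibility was measured in enteroids, which are epithelial cultures grown from intestinal crypts, here from the ileum of 4-month-old mice of the mixed strain C57Bl6/129sv. Control enteroids were Taf4lox/lox, with both Taf4 alleles floxed and no Cre, and are labelled WT in the deposited records. Taf4-inactivated enteroids (Taf4IEC, labelled KO) were Taf4lox/lox::VilCreERT2, in which the villin promoter drives a tamoxifen-inducible Cre in the intestinal epithelium, so cells that do not express villin keep intact Taf4. Both were given 1 µM (Z)-4-hydroxytamoxifen (4-OHT) for 3 days. The culture protocol shared by both records also names the solvent ethanol for control experiments, while the study's methods state that both genotypes received 4-OHT. There was 1 library per genotype, so no p-value was computed. Confidence intervals are exact (Clopper-Pearson) and cover counting error only.

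ATAC-seq reports open DNA through the insertion of adapters by a transposase, and active promoters are among the most accessible sites of a genome. Taf4 is a subunit of TFIID, the general transcription factor that recognises core promoters and with which assembly of the RNA polymerase II machinery begins. Promoters rich in CpG dinucleotides are usually open in most cell types and often belong to housekeeping genes, while CpG-poor promoters are more often tissue-restricted.

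The targeted gene, annotated as Taf4a, was called at its start in both genotypes, at percentile 74.7 of the control list by fold enrichment and 58.7 of the Taf4-inactivated list. The epithelial genes Vil1, Cdx2, Cdh1 and Epcam and the stem cell genes Lgr5 and Olfm4 had start site peaks in both lists too. The control library was the deeper one: the background level solved from fold and p was 12.1 reads in control and 7.35 after Taf4 inactivation, a ratio of 1.65. The control list held 90445 peaks and the Taf4-inactivated list 71282.

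The 250 bases before the start site of 6 control-only genes are shown from the mm9 reference, 5′ to 3′ on the strand of the gene, since they span the sequence classes described further on: a CpG-rich promoter (5730507C01Rik), one with no CpG (Gm9765), promoters with GC boxes, a TATA box, an NRF1 motif or a CCAAT box, and a goblet cell gene (Agr2). Capitals mark the motifs found by search, on either strand, and stretches without capitals held none. All 6 peaks covered the start site.
5730507C01Rik: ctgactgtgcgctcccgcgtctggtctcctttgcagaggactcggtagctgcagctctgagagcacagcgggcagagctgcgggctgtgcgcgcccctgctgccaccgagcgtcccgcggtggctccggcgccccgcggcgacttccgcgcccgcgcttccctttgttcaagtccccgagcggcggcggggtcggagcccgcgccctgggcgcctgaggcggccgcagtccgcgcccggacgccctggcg
Gm9765: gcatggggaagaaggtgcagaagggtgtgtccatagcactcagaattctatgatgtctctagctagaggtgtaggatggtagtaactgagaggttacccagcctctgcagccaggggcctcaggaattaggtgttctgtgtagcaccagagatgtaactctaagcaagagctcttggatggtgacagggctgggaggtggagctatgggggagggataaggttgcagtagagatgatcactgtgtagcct
Syce1: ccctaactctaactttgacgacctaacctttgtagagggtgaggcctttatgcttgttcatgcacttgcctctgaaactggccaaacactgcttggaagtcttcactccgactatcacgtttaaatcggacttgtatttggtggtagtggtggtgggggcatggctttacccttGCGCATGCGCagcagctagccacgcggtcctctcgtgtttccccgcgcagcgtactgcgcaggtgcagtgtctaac
F5: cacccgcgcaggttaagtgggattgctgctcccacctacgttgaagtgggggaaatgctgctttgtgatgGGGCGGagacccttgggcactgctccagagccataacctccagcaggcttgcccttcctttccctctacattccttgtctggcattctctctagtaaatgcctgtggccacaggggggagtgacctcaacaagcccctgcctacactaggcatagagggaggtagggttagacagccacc
Prox1: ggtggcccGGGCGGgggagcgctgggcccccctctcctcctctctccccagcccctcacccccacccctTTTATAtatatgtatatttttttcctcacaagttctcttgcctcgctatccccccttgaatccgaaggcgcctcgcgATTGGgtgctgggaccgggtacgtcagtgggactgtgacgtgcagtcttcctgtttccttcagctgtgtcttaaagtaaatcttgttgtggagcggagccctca
Agr2: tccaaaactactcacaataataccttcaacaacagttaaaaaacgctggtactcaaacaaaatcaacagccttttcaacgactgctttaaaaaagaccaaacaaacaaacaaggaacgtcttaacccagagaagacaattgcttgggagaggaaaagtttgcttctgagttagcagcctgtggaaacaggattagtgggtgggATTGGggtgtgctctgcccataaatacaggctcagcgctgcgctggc

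Genes are on the plus strand unless stated. The stretch of 5730507C01Rik is chr12:18521294-18521543, with 75.6% GC and 36 CpG. That of Gm9765 is chr1:173445114-173445363, with 51.6% GC and 0 CpG. Syce1 (a protein of the synaptonemal complex of meiosis, chr7:147973754-147974003, minus strand) had an NRF1 motif starting 76 bases before its start, which reads the same on both strands. F5 (coagulation factor V, chr1:166081719-166081968) had 1 GC box. Prox1 (a homeobox factor of lymphatic endothelium and enteroendocrine cells, chr1:191994560-191994809, minus strand) had a GC box, and a TATA box and a CCAAT box on the other strand. Agr2 (a disulfide isomerase of goblet cells, chr12:36719244-36719493) had a CCAAT box on the other strand.

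Control-only promoter peaks were low and narrow against those called in both lists. The fold enrichment of a peak is its read pileup over the local background of the same library, and its −log10 q is larger the less the pileup could come from that background. The median fold of control-only peaks was 1.99 (quartiles 1.88 and 2.13), against 2.501 for the control peaks of genes called in both. Expressed as a percentile within the control list, the medians were 41.0 (quartiles 18.4 and 64.6) and 88.2. Only 16 control-only genes (1.31%) had a peak in the top 10% of the list by fold, and 742 (60.7%) had one below its median. The median −log10 q was 1.83 against 5.66. It reached 2 for 514 control-only genes (42.0%) and 5 for 21 (1.72%). The median width was 582 bp (quartiles 335 and 954.5, range 200 to 4367) against 1087 bp, and 215 control-only peaks (17.6%) were narrower than 300 bp, against 2.40% of those called in both. The mirror group, called only after Taf4 inactivation, sat at a median percentile of 43.1 in its own list, with a median width of 419 bp and a median −log10 q of 2.36. The Taf4-inactivated list ran higher as a whole. Its median fold was 2.45 against 2.03 in the control list, and its median −log10 q 2.64 against 1.98.

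**Figure D1:**
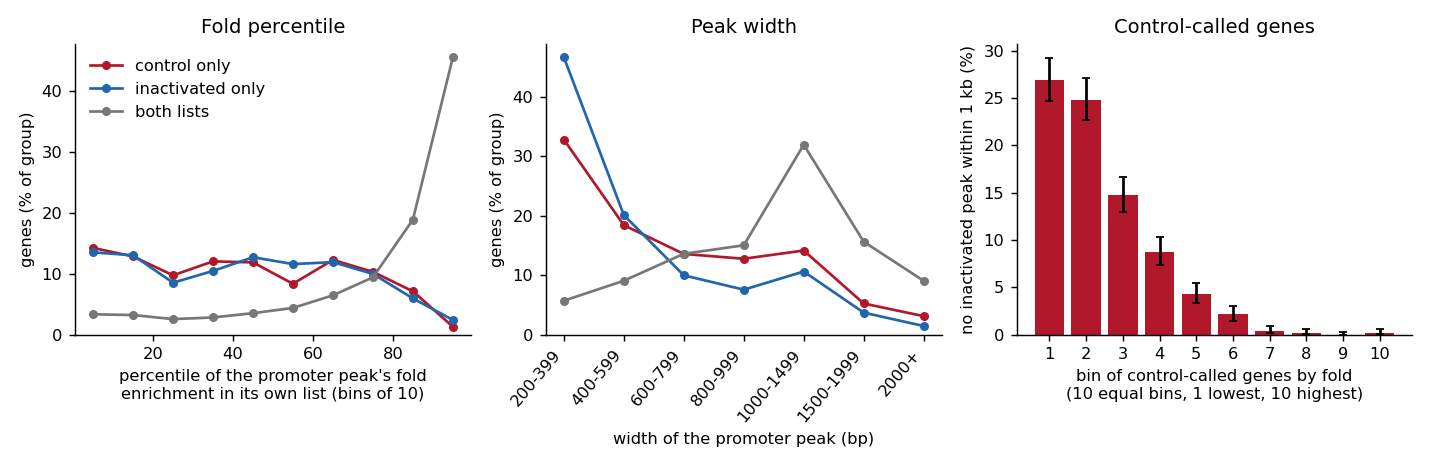
Left and middle, share of genes (percent of each group) by the fold percentile of the promoter peak in its own list and by peak width in bp, for control-only, inactivated-only and shared genes. Right, percent of control-called genes with no Taf4-inactivated peak within 1 kb, in 10 equal bins of fold, with exact 95% intervals; the share fell from 26.9% in the lowest bin to 0.202% in the highest.

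When all 14827 control-called genes were ordered by fold and cut into 10 equal bins, the share without a Taf4-inactivated start site peak was 26.9% in the lowest bin, 24.8% in the next and 14.7% in the third. It was 4.32% in the fifth and 0.405% in the seventh, and no gene of the ninth lacked a Taf4-inactivated peak. The lowest 3 bins held 985 of the 1223 control-only genes. The control library was also the deeper one. With the background and pileup of each control-only peak scaled to 60.5% of their value, to match the shallower library, 715 of the 1223 peaks (58.5%, CI 55.6 to 61.2) had a −log10 p under the lowest one in the Taf4-inactivated list, 2.87. The same scaling left 1011 of the 13604 genes called in both (7.43%) under that value. Their control peaks were higher before scaling, with a median fold of 2.501 against 1.99. The peaks of 20 control-only genes kept a scaled −log10 p of at least 5. The part of depth in the calls was not tested beyond this scaling.

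The peak spanned the start site for 595 control-only genes (48.7%, CI 45.8 to 51.5), lay upstream for 201 (16.4%) and downstream for 427 (34.9%). Of the genes called in both, 90.9% had a control peak over the start site, and of the mirror group 53.9% did. Seen from all control-called genes, a Taf4-inactivated peak was missing for 4.59% of those with a peak over the start and for 33.6% of those with a peak beside it (CI 31.5 to 35.8). Within the lowest 3 bins of fold these shares were 14.3% and 42.1%. Genes with 1 annotated start site lacked a Taf4-inactivated peak in 13.4% of cases and genes with 2 or more in 5.85%. Of the control-only genes, 51.5% had 1 start site, against 29.8% of those called in both. The choice of the genes bears on these shares, since it bars a Taf4-inactivated peak near any start site. A gene with more start sites thus has more places at which to fail it.

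Many control-only promoters had a Taf4-inactivated peak further off. Distances here and below run from whichever start site of the gene lies nearest to the Taf4-inactivated peak, as in the choice of the genes, and this can differ from the start site with the control peak. The nearest lay between 1 and 2 kb from a start site for 236 genes (19.3%), between 2 and 5 kb for 347 (28.4%), between 5 and 10 kb for 274 (22.4%), between 10 and 50 kb for 299 (24.4%) and beyond 50 kb for 67 (5.48%). Thus 583 genes (47.7%, CI 44.8 to 50.5) had one within 5 kb, and the median distance was 5373 bp. For 367 genes (30.01%) a start site other than that of the control peak was the nearer one. Measured from the start site of the control peak, 495 genes (40.5%) had a Taf4-inactivated peak within 5 kb and the median was 6385 bp. In the mirror group 336 of 622 genes (54.0%, CI 50.01 to 57.99) had a control peak within 5 kb, with a median of 4259.5 bp. Genes called in neither list had a Taf4-inactivated peak within 5 kb in 18.6% of cases. The share of 47.7% became 10.8% with 20000 peaks per list, a setting that cuts both lists and leaves 105 of the 1223 genes in a group of 1400, and it was 70.7% when only peaks over a start site were counted as start site peaks. The nearest Taf4-inactivated peak lay downstream of the start site for 646 control-only genes (52.8%) and touched the body of the gene for 410 (33.5%). Of the control-only peaks, 74 (6.05%) overlapped a Taf4-inactivated peak, and 39 of the mirror group (6.27%) overlapped a control peak. The choice of the genes limits both shares, since it bars a peak of the other list within 1 kb of any start site.

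**Figure D2:**
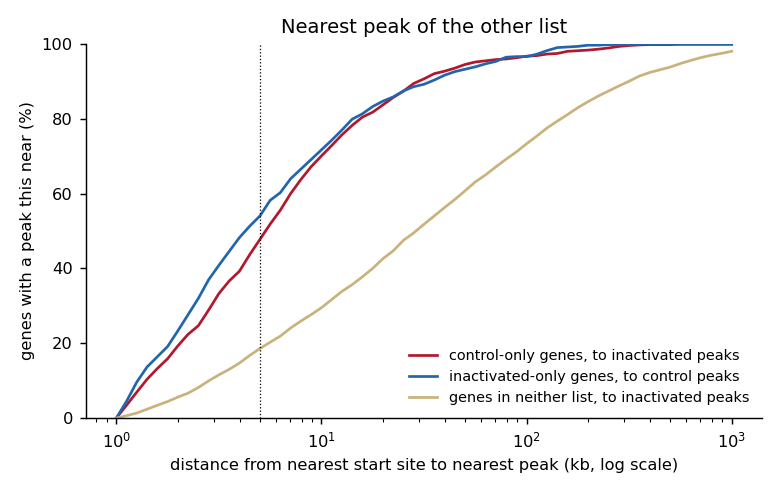
Cumulative share of genes (percent) by distance in kb, on a log scale, from a start site to the nearest peak of the other list; the dotted line marks 5 kb. At 5 kb the control-only curve stood at 47.7%, the inactivated-only curve at 54.0% and the curve of genes in neither list at 18.6%.

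Some genes entered the group by a margin of a few bases. The nearest Taf4-inactivated peak lay within 100 bp outside the limit of 1 kb for 33 control-only genes, and within 100 bp inside it for 45 genes called in both. Tmem69, which encodes a transmembrane protein, is the clearest case. Its control peak (chr4:116229511-116230747) lay 970 bp upstream of the nearest start site, with a fold of 3.64, at percentile 99.3 of the control list. Its Taf4-inactivated peak (chr4:116229543-116230719) lay 1002 bp upstream, with all of its 1177 bp inside the control peak. Its fold was 4.85, at percentile 98.6 of the Taf4-inactivated list, in which folds ran higher as a whole. Zbtb32, a zinc finger repressor of lymphocytes, had peaks 951 and 1016 bp upstream that overlapped by 449 bp. Both regions were thus called in both libraries.

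The next members inside the limit on the Taf4-inactivated side were 4933411K16Rik at 1003 bp and Pgf (placental growth factor) at 1004 bp. Just outside it were Hic1 at 999 bp, A630091E08Rik at 995 bp and Dnahc2 at 991 bp. On the control side, 53 control-only genes had their nearest control peak within 100 bp inside the limit, and 52 genes called in neither list had it within 100 bp outside. The last members inside were C2cd4d at 1000 bp, and Myh6 (cardiac myosin heavy chain) and Cd33 (a sialic acid-binding receptor of myeloid cells) at 995 bp. Cd7, Gm6309 and Cyp2d37-ps fell just outside at 1003, 1007 and 1009 bp.

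The 10 control-only genes with the highest fold were 5730507C01Rik, Tmem69, Zbtb32, Gm10094, Gm9765, 9030425E11Rik, Agtr1a, Cyp4x1, Syce1 and Creg2, from 3.67 down to 2.66. At 5730507C01Rik (ENSMUSG00000073197.1, chr12:18521544-18540997) the peak covered the start site over 1296 bp with a −log10 q of 12.1, and the nearest Taf4-inactivated peak lay 95110 bp away. Gm10094 had a peak of 329 bp with a fold of 2.85, 587 bp upstream of its start, and a Taf4-inactivated peak 7260 bp away. At Gm9765 a peak of 857 bp with a fold of 2.85 covered the start and the nearest Taf4-inactivated peak lay 10934 bp away. These 3 are predicted or unnamed genes whose products are not well described.

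The peak of Agtr1a (angiotensin II receptor type 1a) began 3 bp downstream of the start, with a fold of 2.76, a width of 306 bp and no Taf4-inactivated peak within 24173 bp. Cyp4x1, a cytochrome P450, had a peak of 521 bp over a start site with a fold of 2.71 and its nearest Taf4-inactivated peak at 32036 bp. Syce1 had a fold of 2.66 and a Taf4-inactivated peak 9942 bp away. Creg2 (fold 2.66) had one at 4869 bp, inside the gene. 9030425E11Rik (fold 2.80) had one 2377 bp from another of its 4 start sites, but none within 22351 bp of the start site with the control peak. By −log10 q, the leading genes were Tmem69 (14.5), Zbtb32 (12.4), 5730507C01Rik (12.1), Gm1568 (8.13) and Mslnl (7.82), a relative of the cell surface protein mesothelin. Of these 5, Tmem69, Zbtb32 and Gm1568 overlapped a Taf4-inactivated peak, while 5730507C01Rik and Mslnl did not and had their peak over the start site.

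The widest control-only peak, 4367 bp, covered Grifin, a galectin-related gene of the lens, with a fold of 1.83. It was followed by Spn (the leukocyte sialoglycoprotein CD43) at 3435 bp, Alppl2 (an alkaline phosphatase) at 3174 bp, Gm7120 at 3119 bp and Itih1 (a heavy chain of the inter-alpha-trypsin inhibitor) at 2964 bp. All 5 had a fold under 2, and the first 4 overlapped a narrower Taf4-inactivated peak inside the gene, from 546 bp at Spn to 1184 bp at Gm7120. These are wide control regions of which a stretch away from the start was also called after Taf4 inactivation. The largest overlaps were at Sox4 (a transcription factor of progenitor cells, 1833 bp), Gm1568 (1741 bp), Gzmm (granzyme M, 1702 bp), Cspg5 (a neural proteoglycan, 1664 bp) and Apof (apolipoprotein F, 1372 bp), and in each the peak lay beside the start site by 429 to 992 bp. The annotated Sox4 entry counted here spans only 405 bp, and its control peak lay 720 bp upstream of the start of that entry.

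The genes farthest from any Taf4-inactivated peak were Pabpc4l (a poly(A)-binding protein relative) at 1066051 bp, Lrrc7 (a postsynaptic scaffold protein) at 524503 bp, Zbbx at 357486 bp, Fsip2 (a sperm fibrous sheath protein) at 335928 bp and Dpp10 (a modulator of potassium channels) at 317683 bp. Each had its control peak over the start site. The fold was between 1.91 and 2.32 for 4 of them and 2.48 for Lrrc7, whose peak of 1237 bp was at percentile 87.7 of the control list.

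Control-only genes were spread over the chromosomes, from 4.04% of the coding genes of chromosome 13 to 7.53% of those of chromosome 15. In 103 places 2 neighbouring coding genes were both control-only, in 4 places 3 were, and in 1 place 4 were. The longest run, on chromosome 1 (133534883 to 133718050), comprised Ctse (the aspartic protease cathepsin E), 5430435G22Rik, Slc26a9 (an anion transporter) and Pm20d1 (a peptidase), each with a peak of its own. Runs of 3 were Prss39, Cfc1 and Prss40 on chromosome 1, H2-M10.2, H2-M10.1 and H2-M10.3 of the major histocompatibility complex on chromosome 17, the cytochrome P450 genes Cyp2j13, Cyp2j12 and Cyp2j7-ps on chromosome 4, and Abpg, Abpb and Abpa (androgen-binding proteins) on chromosome 7. Another coding gene started within 1 kb of the peak for 76 control-only genes (6.21%). For 34 of these 76 (2.78% of all control-only genes) such a gene was called in both lists.

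Gene classes were set by symbol. Control-only genes were most frequent among proteases and their inhibitors, with 39 of 245 genes (15.9%, CI 11.6 to 21.1), and ion channels, with 38 of 256 (14.8%, CI 10.7 to 19.8), against 5.71% of all coding genes. Collagens, laminins, integrins and other matrix proteins followed with 16 of 114 (14.0%), G protein-coupled receptors other than olfactory and related ones with 31 of 245 (12.7%), homeobox and other lineage transcription factors with 30 of 245 (12.2%), and leukocyte receptors and MHC with 26 of 237 (10.97%). Cadherins and protocadherins had 7 of 57 (12.3%, CI 5.08 to 23.7). In these 7 classes the mirror group held between 1.75% and 5.31% of the genes. Peak height moved with class: the control peaks of control-called proteases and ion channels had median folds of 2.03 and 2.08, against 2.49 for named genes outside the classes. Within the lowest 3 bins of fold, where 22.1% of all control-called genes lacked a Taf4-inactivated peak, 36 of 72 protease and 33 of 123 ion channel genes (26.8%) did. The homeobox and lineage factors (27 of 122, 22.1%) and the matrix proteins (12 of 53, 22.6%) were close to all genes there. The shares were 27% for the G protein-coupled receptors, 36.1% for leukocyte receptors and MHC, and 6 of 12 for cadherins and protocadherins.

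**Figure D3:**
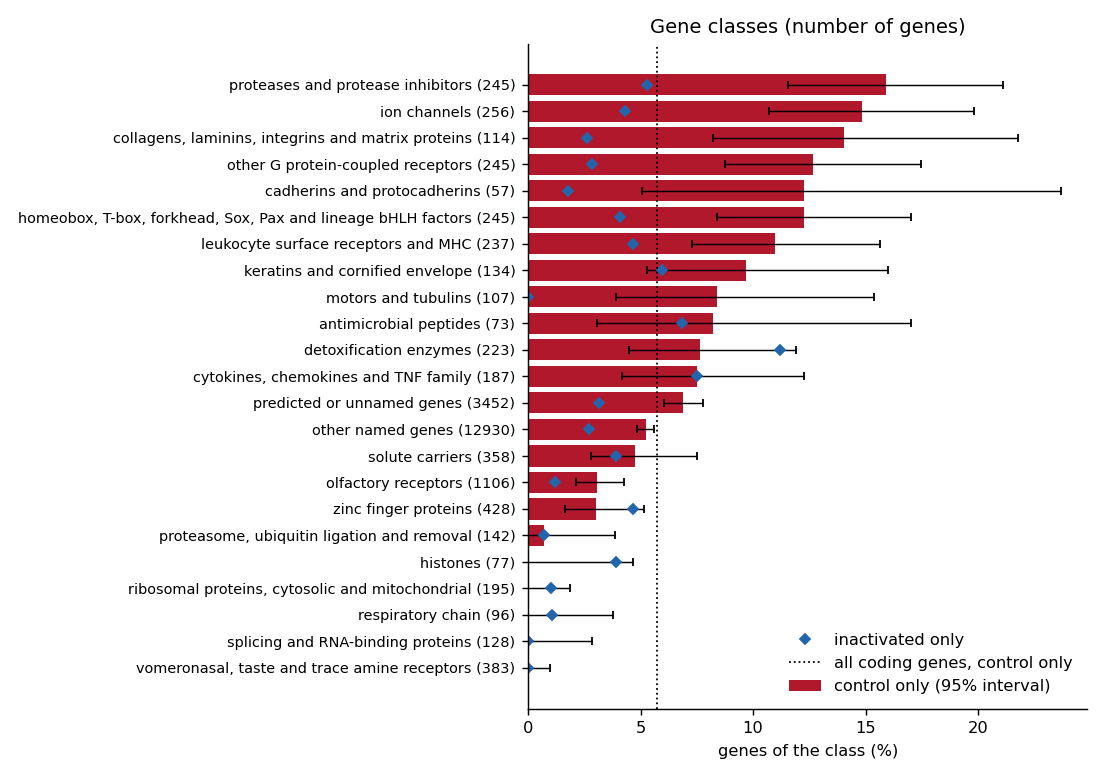
Percent of the coding genes of each class called only in control (red bars, exact 95% intervals) and only after Taf4 inactivation (blue diamonds), with the number of genes in parentheses; the dotted line is the 5.71% of all coding genes. Bars ran from 15.9% for proteases to 0% for histones, ribosomal proteins, the respiratory chain, splicing proteins and vomeronasal receptors.

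Housekeeping classes held few control-only genes. None of 195 ribosomal protein genes, 128 splicing and RNA-binding, 96 respiratory chain or 77 histone genes was control-only, and of 142 genes of the proteasome and ubiquitin system 1 was, Cul9. Counts of 0 leave upper limits of 1.87%, 2.84%, 3.77% and 4.68%. Most of these classes were low in the mirror group too. It held 2 ribosomal protein, 0 splicing, 1 respiratory chain, 3 histone (3.90%) and 1 proteasome or ubiquitin gene, against 2.9% of all coding genes. Zinc finger and detoxification classes held more inactivated-only than control-only genes. Of 428 zinc finger genes, 13 were control-only (3.04%, CI 1.63 to 5.14) and 20 inactivated-only (4.67%). Of 223 detoxification genes, 17 were control-only (7.62%, CI 4.50 to 11.9) and 25 inactivated-only (11.2%). Both inactivated-only shares lay inside the control-only intervals. Over all coding genes the shares were 5.71% and 2.9%. Olfactory receptor genes were seldom called in either list, since 1042 of 1106 had no peak. Their control-only share was 3.07%, below the 5.71% of all coding genes. Of the 51 with a control peak, 34 (66.7%) lacked a Taf4-inactivated one, against 8.25% of all control-called genes. Of the 30 with a Taf4-inactivated peak, 13 (43.3%) lacked a control one, against 4.37%.

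Examples chosen after their values were seen give the scale of these peaks. Among proteases, Mmp25 (a membrane-bound metalloproteinase) had a fold of 2.35 with its nearest Taf4-inactivated peak at 2948 bp, and Cela3b (a pancreatic elastase) a fold of 2.15 with 6967 bp. Among ion channels, the cation channel Trpc4 had a fold of 2.49 with 14689 bp, and the GABA receptor subunit Gabra2 a fold of 2.30 with 267814 bp. The interleukin Il6 had a narrow peak of 300 bp, 4 bp downstream of its start, with a fold of 2.45. The endothelial lectin Clec14a had a fold of 2.48 over 1427 bp, and the neuropeptide Y receptor Npy2r one of 2.41. Olfr95 had the highest fold of the olfactory receptors, 2.54, with a peak of 901 bp over its start.

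Some gene families, again picked from the counts, had control-only shares above the 5.71% of all coding genes, while large families such as Zfp (3.04% of 362), Olfr (3.07% of 1106) and Slc (4.96% of 343) lay below it. Of 14 Nkx homeobox genes, 6 were control-only (Nkx1-1, Nkx1-2, Nkx2-1, Nkx2-3, Nkx6-2 and Nkx6-3), with folds from 1.71 to 1.91 and Taf4-inactivated peaks at 1433 to 22154 bp. Of 27 kallikrein genes (Klk, serine proteases in a group on chromosome 7), 9 were control-only, with folds from 1.86 to 2.02. Of 38 Prss serine protease genes 12 were, led by Prss40 with 2.19, and Prss51 and Prss55 shared 1 peak. Of 12 lipocalin genes (Lcn, carriers of small hydrophobic molecules) 5 were, all on chromosome 2, with folds from 1.74 to 2.12. The highest percentile by fold among these 4 families was 71.5, at Prss40.

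Marker and pathway genes were control-only about as often as coding genes in general. Of 499 genes on 18 marker and pathway lists, 385 were called in both lists, 29 (5.81%) only in control and 20 only after Taf4 inactivation. Over all coding genes the control-only share was 5.71%. None of 30 intestinal stem cell, 43 cell cycle, 60 DNA replication and repair, 29 Polycomb, 20 TFIID, 12 AP-1 or 18 Paneth cell genes was control-only. At 5.71%, the shorter of these lists can hold none without differing from other genes. Of the Paneth cell genes 13 had no peak in either list and 4 were called in both, while 29 of the 30 stem cell genes were called in both. All 60 DNA replication and repair genes and all 29 Polycomb genes were called in both.

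Among secretory lineage markers, 3 of 17 goblet cell genes were control-only. Agr2 had a peak of 596 bp over its start with a fold of 2.21, and the nearest Taf4-inactivated peak lay 2914 bp downstream, inside the gene. Tff2, a trefoil peptide, had a fold of 2.07 with 5552 bp, and the mucus lectin Zg16 one of 1.92 with 1386 bp. Of 26 enteroendocrine genes 3 were control-only and 4 inactivated-only. The control-only ones were the transcription factors Neurod1 (fold 1.93, nearest Taf4-inactivated peak at 53330 bp) and Neurog3 (1.87, 17478 bp), which act in succession in endocrine differentiation, and the hormone Pyy (1.85, 9963 bp). Of 22 tuft cell genes, Alox5ap (leukotriene synthesis, 2.20) and Sh2d6 (2.11, 1629 bp) were control-only. The nearest Taf4-inactivated peak of Alox5ap lay 2292 bp from its other start site and 9668 bp from the one with the control peak. Of 33 enterocyte genes, 2 were control-only and 5 inactivated-only. Fabp6, the ileal bile acid-binding protein, had a peak of 367 bp over its start with a fold of 1.99 and no Taf4-inactivated peak within 11569 bp, while at Apoa1 a control peak 226 bp downstream of a start overlapped a Taf4-inactivated one by 472 bp.

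Genes on lists for cell types outside the epithelium were also among the control-only genes: 4 of 15 endothelial (Cldn5, Pecam1, Prox1 and Robo4), 3 of 30 immune (Cd68, Cd79b and Ncf1) and 1 of 20 mesenchymal (Cnn1), and the neuronal and glial genes Nefl, Olig2 and Sox10. Prox1, which epithelial enteroendocrine cells also express, had the highest fold of these, 2.37 over 1983 bp, with 573 bp shared with a Taf4-inactivated peak. Nefl followed with 2.20, and the other 9 named here lay between 1.61 at Sox10 and 1.92 at Cd79b. The part of such cells in the calls was not tested. Among signalling genes, 3 of 49 Wnt pathway genes were control-only: Rspo2 (an R-spondin that enhances Wnt signals, 2.17, 24498 bp), the ligand Wnt8a (2.11, 2914 bp) and the secreted inhibitor Sfrp5 (1.88, 2165 bp). The 2 of 27 Notch genes were the coactivator Maml2 (2.004) and Egfl8 (1.66), and the 2 of 44 nuclear receptors were Rarb (2.05, 4231 bp) and Rxrg (2.30), receptors of retinoids. At Rxrg a Taf4-inactivated peak lay 1198 bp from another of its 4 start sites and 2304 bp from the one with the control peak. Of the 29 listed genes, 2 had a −log10 q above 3. Those were Prox1 (4.83) and Sh2d6 (3.04), named after their values were seen.

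Control-only promoters held less CpG than those called in both. In the 250 bases before the start, a promoter was counted as CpG-rich with at least 55% GC and an observed over expected CpG ratio of at least 0.6. By this count 152 control-only promoters (12.4%, CI 10.6 to 14.4) were CpG-rich, against 54.0% (CI 53.2 to 54.8) of those called in both, 2.28% of those in neither and 35.95% of all. The mirror group had 10.5% (CI 8.16 to 13.1). The control-only share depended on the peaks admitted: it was 46.8% when each list was cut to its 20000 peaks with the highest −log10 p, where 105 of the 1400 control-only genes were in the group as reported, 31.1% with 40000 peaks and 26.4% with a −log10 q of at least 2 in both lists. Median GC was 53.6% in control-only, 60.4% in shared and 42.8% in uncalled promoters, and the median CpG ratio was 0.273, 0.718 and 0.156.

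Seen from the control list, a Taf4-inactivated start site peak was missing for 152 of 7499 CpG-rich promoters (2.03%, CI 1.72 to 2.37) and for 1071 of 7328 others (14.6%, CI 13.8 to 15.4). In the other direction a control peak was missing for 0.877% of CpG-rich and 8.17% of other promoters called after Taf4 inactivation. Within the lowest 3 bins of control fold, 7.48% (CI 6.18 to 8.97) of CpG-rich and 29.2% (CI 27.6 to 30.8) of other promoters lacked a Taf4-inactivated peak. Thus the CpG-rich promoters that were control-only were few, both overall and among low peaks. Of the homeobox and lineage factors 9 of 30 control-only promoters were CpG-rich and of the ion channels 9 of 38, whereas none of the 34 olfactory receptors and 26 leukocyte receptors was. Those with the highest fold after 5730507C01Rik, 9030425E11Rik and Creg2, picked by these values, were Acot12 (an acyl-CoA thioesterase, 2.61), Rnf182 (a ubiquitin ligase, 2.58), Kbtbd12 (2.54) and the growth factor Gdf10 (2.54), with their nearest Taf4-inactivated peaks at 13853 to 22551 bp.

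**Figure D4:**
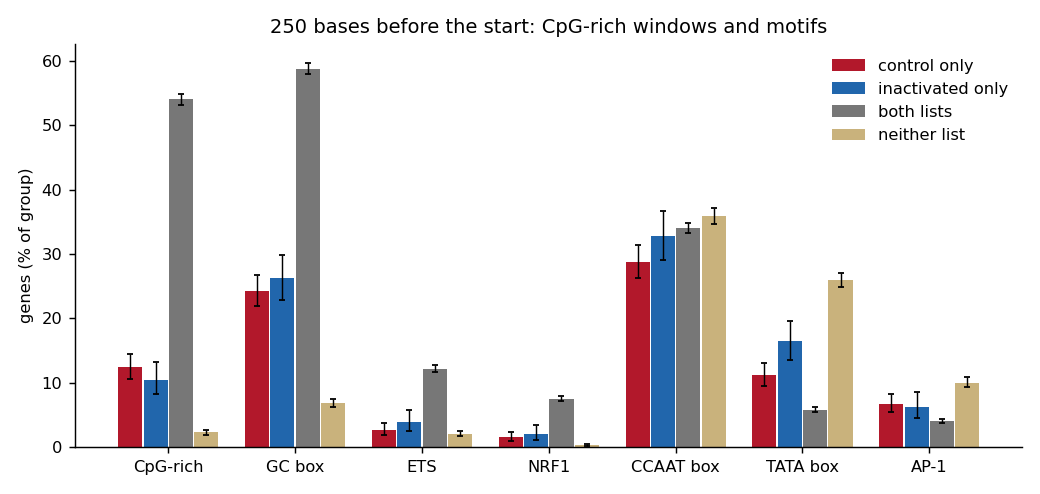
Percent of genes in each group whose 250 bases before the start were CpG-rich or held a motif on either strand, with exact 95% intervals. Control-only and inactivated-only bars lay between those of shared and uncalled genes for CpG-rich windows (12.4% and 10.5% against 54.0% and 2.28%), GC, TATA and AP-1 motifs.

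The 6 motifs were searched on both strands, and a match is only a run of letters. The GC box (GGGCGG), bound by Sp family factors, was in 24.3% of control-only promoters (CI 21.9 to 26.8), 58.8% of shared ones, 6.85% of uncalled ones and 41.4% of all. The TATA box (TATAAA), where the TBP subunit of TFIID binds, was in 11.2% (CI 9.49 to 13.1), against 5.75%, 25.9% and 11.99%. In the mirror group it was in 16.4% (CI 13.6 to 19.5). The ETS motif, searched as CCGGAAG, and the NRF1 motif were in 2.70% and 1.47% of control-only promoters, against 12.1% and 7.50% of shared ones, 2.01% and 0.251% of uncalled ones and 8.53% and 4.97% of all. The AP-1 motif (TGANTCA) was in 6.70% of control-only, 3.99% of shared and 5.89% of all promoters, and the CCAAT box, searched by those letters, in 28.7%, 34.1% and 34.2%. The AP-1 share of the mirror group was 6.27%, inside the interval of the control-only share (5.37 to 8.25).

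The size of the group against its mirror depended on how peaks were admitted. With a −log10 q of at least 5 required of the own peak, 21 genes were control-only and 94 inactivated-only, and with control peaks scaled to the depth of the other library 510 and 1618. At the threshold of 5 the whole control list held 10757 peaks and the whole Taf4-inactivated list 20474. With a −log10 q of at least 2 in both lists the counts were 1066 and 977. Changing the distance to 500 bp or 2 kb gave 1206 and 1248 control-only genes, of which 1020 and 987 were also in the group as reported.

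**Figure D5:**
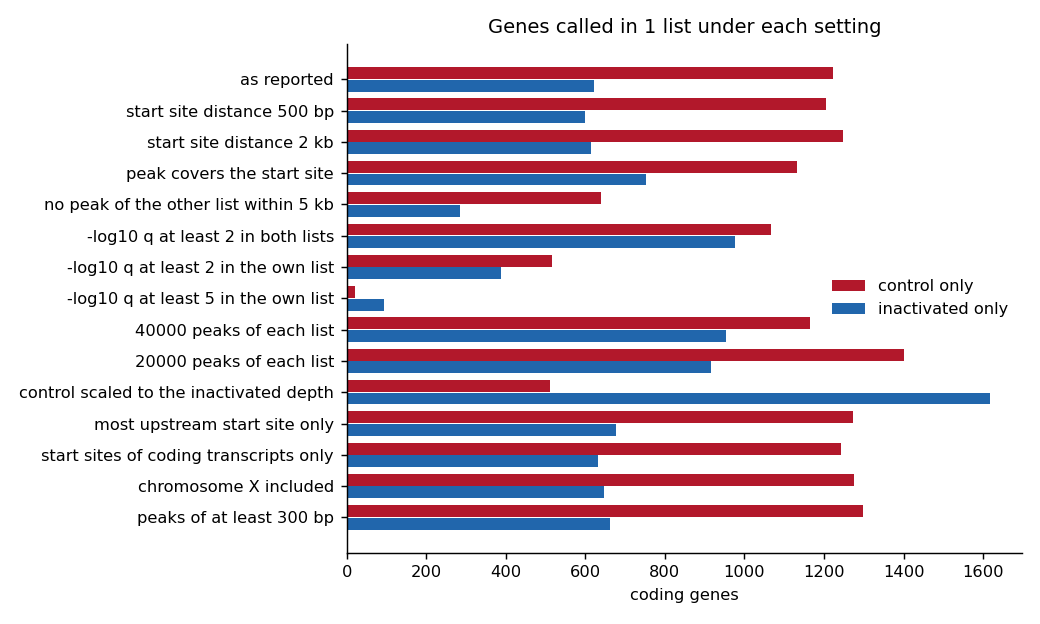
Number of coding genes called only in control (red) and only after Taf4 inactivation (blue), as reported and under each of the other settings. Red exceeds blue in every setting but the threshold of 5 (21 against 94) and the scaled control list (510 against 1618).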

How the data were processed

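The peak lists of 1 control and 1 Taf4-inactivated ATAC-seq library were used. The authors demultiplexed reads with bcl2fastq 2.17.1.14, mapped uniquely mapping reads to mm9 with Bowtie 1.0.0 and called broad peaks in each library alone with MACS2 2.1.1, with no shifting model and a read extension of 200 bp, according to the methods and the submitters' processing notes. The treatment of duplicate and mitochondrial reads was not given in the sources used here. The deposited score restates the −log10 q as a whole number and was not used further. The deposited fold enrichment (a ratio), −log10 p-value and −log10 q-value are averages over each peak and were ranked only within a list, since every list depends on its depth.

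Peaks were joined to 67194 transcript start sites of coding genes in the GENCODE annotation of NCBIM37 (mm9), with 1-based coordinates. Each gene was described by its start site peak with the highest fold. Under the other settings any start site peak admitted a gene. Sequence came from the mm9 genome, and of 12 promoters read for members with the highest fold or on a list, 6 are shown. Relative depth was solved from fold and p, and a control peak was rescaled with its pileup and background multiplied by the depth ratio. Start site calls and the depth ratio were tested on simulated data, in which each peak had a fixed pileup and background. The deposited values are averages over each peak, so the simulation does not show how well the ratio holds for them. Python 3.11.15, numpy 2.4.6, pandas 2.3.3, scipy 1.17.1, pysam 0.24.0 and matplotlib 3.10.9 were used. Members, classes, lists and alternatives were chosen with earlier results of these data known. Named genes were the 10 with the highest fold, the 5 with the highest −log10 q, the 5 widest, the 5 farthest from and the 5 overlapping a Taf4-inactivated peak most, the 3 on each side of each limit, the longest runs of neighbours and every list member; others were picked after their values were seen. A few items are not reported here.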

Additional observations from a re-analysis of the deposited data

How the results depend on the processing

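With 1 library per genotype no library could be left out, and no spread between cultures is known. No paired analysis was possible because no comparison comes from a test and each genotype has 1 library. Fold, p and q carry no read counts, and 14 alternatives changed 1 choice each. Counts within 1.5 times the reported one, and shares inside its 95% interval, were taken as close: of 55 recomputed values of the 4 main results 29 were close and 26 moved. The number of control-only genes moved from 1223 to 640 when no peak of the other list was allowed within 5 kb, to 516 with a −log10 q of at least 2 and to 21 with at least 5 in the own list, and to 510 with control scaled to the Taf4-inactivated depth. The number of inactivated-only genes moved from 622 to 286, 387, 94 and 1618 under the same settings, to 977 with a −log10 q of at least 2 in both lists and to 954 with 40000 peaks per list. With 20000 peaks per list it was 915, just within that limit. The difference between the groups (control-only minus inactivated-only) was reversed to -73 with a −log10 q of at least 5 and to -1108 with the scaled control list. The second follows in part from its construction, since it removes control peaks alone. The share with a Taf4-inactivated peak within 5 kb was 54.8% at a start site distance of 500 bp, 37.1% at 2 kb, 70.7% with peaks covering the start, 27.02% with a −log10 q of at least 2 in both lists, 52.4% with at least 5 in the own list, 22.2% with 40000 and 10.8% with 20000 peaks per list, and 41.6% with peaks of at least 300 bp. The CpG-rich share was 21.7% with peaks covering the start, 26.4% and 16.9% with a −log10 q of at least 2 in both and in the own list, 19.05% with at least 5, 31.1% and 46.8% with 40000 and 20000 peaks per list, 16.7% with the scaled control list and 15.5% with peaks of at least 300 bp. The cause of these moves was not tested.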
